A study of Mus musculus with 3 samples.

Results

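Annexins are a family of proteins that bind acidic phospholipids of membranes when calcium rises. The family as described here is 9 mouse annexin genes, Anxa1 to Anxa8 and Anxa11, taken by symbol from the 54532 Ensembl genes of the deposited tables. The genes were picked by family name, with earlier results of these data known. All 9 were found, and 8, 9 and 8 of them had reads in the PBS, ZOL and ZOL+Ang2 libraries.

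The study profiled RNA of cells of the dura mater, the tough outermost covering of the brain, in a mouse model of dural metastasis made with 4T1-DM cells (4T1 is a mouse mammary carcinoma line). Cells without CD45, a leukocyte marker, and with CD31 and podoplanin, a pair that marks lymphatic endothelium, were taken 12 days after inoculation. All mice carried the 4T1-DM cells, and their treatments were PBS, ZOL or ZOL+Ang2, abbreviations which the labels do not spell out. Each group was 1 library from 6 pooled mice, so no test could be made, and differences between animals were not measured. Strain, sex, age and doses are not stated in the labels.

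A short account of the libraries bears on everything that follows. From the deposited values 1675532 reads were recovered for PBS, 16586760 for ZOL and 9204901 for ZOL+Ang2, so PBS values are the least precise. Satellite-type models, mitochondrial, chemoreceptor, ribosomal RNA and haemoglobin genes together took 38.5% of PBS reads, against 9.65% with ZOL and 15.6% with ZOL+Ang2. Of 7 lymphatic markers, Lyve1 was at 0 reads in every library, and Prox1, the master regulator of lymphatic identity, had 2 PBS reads and 0 elsewhere. The others were mixed: Flt4 had 0.538, 70.9 and 23.8 CPM (reads scaled by library) in PBS, ZOL and ZOL+Ang2, Pdpn, the podoplanin gene, 18.8, 67.5 and 170.6, Mmrn1 155, 11.5 and 12.0, Reln 99.6, 8.60 and 7.87, and Ccl21a 0, 11.1 and 3.88. Pecam1, the gene of the sorting marker CD31, had 2 reads or 1.08 CPM in PBS, against 475 and 177 CPM in the others. Since the markers do not settle the cell type, the sorted cells are called gated dural cells here. In such pooled RNA, fewer cells of a type and less RNA per cell cannot be told apart.

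As background, the annexin core is a fold of repeats that sits on the membrane, and the N-terminal end, which differs between members, binds partners such as S100 proteins. Annexin A1 acts through formyl peptide receptors to limit leukocyte recruitment, annexin A2 with S100A10 gathers plasminogen and its activator on the endothelial surface, and annexin A5 binds phosphatidylserine exposed on dying cells. Several members help to reseal torn plasma membranes.

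Compared per length within a library, Anxa5 and Anxa2 led the family in all 3 libraries, while the genes behind them differed. RPKM is the authors' unit, reads per kilobase of gene per 1000000 reads, and serves here for comparing genes with each other. Anxa5 stood at 192 RPKM in PBS, 534 with ZOL and 489.7 with ZOL+Ang2. Anxa2 followed at 149, 444 and 407 RPKM. The RPKM ratio of Anxa5 to Anxa2 was 1.29 in PBS (95% counting interval 1.13 to 1.47), 1.203 in ZOL (1.18 to 1.22) and 1.202 in ZOL+Ang2 (1.17 to 1.23), so the pair kept nearly the same proportion. This ratio needs no scaling between libraries.

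Behind them in PBS came Anxa4, a calcium-dependent binder of secretory and apical membranes, at 83.4 RPKM, then Anxa6 at 50.9, Anxa7 at 49.2 and Anxa11 at 29.6. Anxa6 and Anxa7 did not differ beyond counting error in that library (ratio 1.03, interval 0.854 to 1.25). Anxa1 and Anxa3 were near the bottom of the PBS order, at 5.48 and 1.47 RPKM, and Anxa8 was at 0. In ZOL the places behind the leading pair belonged to Anxa1, at 285 RPKM, and Anxa3, at 128. The same places in ZOL+Ang2 went to Anxa1 at 351 RPKM and Anxa3 at 156. Anxa6 came next in those libraries, at 75.8 and 102 RPKM. Anxa11 had the fewest of any member in ZOL, at 1.68 RPKM, and in ZOL+Ang2 it was at 0.124 with Anxa8 at 0. Apart from Anxa6 and Anxa7 in PBS, neighbours with reads in these orders differed by more than counting error.

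The family's make-up thus differed between PBS and the other libraries. Anxa1, Anxa2, Anxa3 and Anxa5 held 62.0% of the summed RPKM of the 9 genes in PBS, 91.0% with ZOL and 90.8% with ZOL+Ang2. Anxa4, Anxa6, Anxa7 and Anxa11 held 38.0%, 8.28% and 9.25%. Anxa1 alone was 0.977% of the family in PBS, 18.6% with ZOL and 22.7% with ZOL+Ang2. Anxa4 went from 14.9% to 1.24% and 2.21%.

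**Figure D1:**
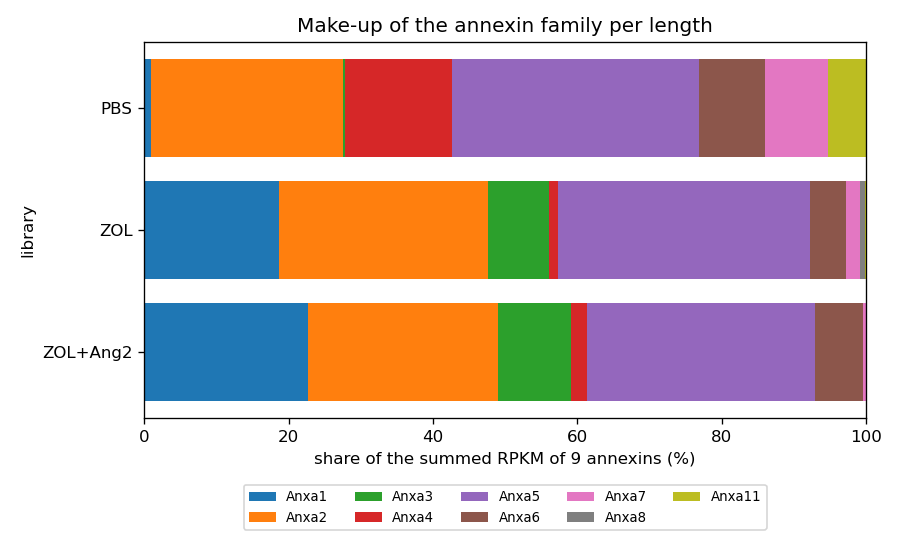
Share of the summed RPKM of the 9 annexins (horizontal axis, percent) held by each gene in the PBS, ZOL and ZOL+Ang2 libraries (1 bar each). Anxa5 and Anxa2 are broad in each bar, while Anxa1 and Anxa3 are wide in ZOL and ZOL+Ang2 and narrow in PBS.

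For comparing libraries, reads were scaled to CPM, reads per 1000000 corrected for library make-up by TMM factors. Together the 9 genes took 1128 CPM in PBS, 6667 with ZOL and 5992 with ZOL+Ang2. Of the family's 2096, 104658 and 52545 reads, most fell on a few members. A fold below is a ratio of CPM with an exact 95% binomial interval, which covers counting error only, since amplified reads without molecular identifiers are not independent molecules.

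Anxa1, known for curbing inflammation, had 18 reads or 9.61 CPM in PBS, 1249 CPM with ZOL and 1366 CPM with ZOL+Ang2. Its PBS value lay far below the other libraries, which were close to each other. The ratio of ZOL to PBS was 130.0 (81.6 to 218). Reads of Anxa1 did not come out whole with the annotated length, so its read numbers are rounded, while CPM and ratios use the unrounded values.

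Anxa3, a small annexin found in neutrophils and some endothelial and epithelial cells, showed the widest ratio of ZOL to PBS in the family. It had 6 reads or 3.23 CPM in PBS, 706 CPM with ZOL and 762 with ZOL+Ang2. ZOL stood 219-fold above PBS (100.4 to 596), a ratio that rests on those 6 PBS reads. Among all genes compared, Anxa1 and Anxa3 lay at percentiles 99.9 and 99.9 of the log2 ratio of ZOL to PBS. Both passed the filter, a mean of 10 CPM, through ZOL and ZOL+Ang2, which favours this direction.

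Anxa2, the plasminogen-binding partner of S100A10, stood at 335 CPM in PBS, 2498 with ZOL and 2032 with ZOL+Ang2. ZOL was 7.46-fold above PBS (6.89 to 8.09). Anxa5, the phosphatidylserine binder, had 206, 1431 and 1164 CPM in the same order, with ZOL 6.96-fold above PBS (6.29 to 7.72). Anxa2 and Anxa5 were thus lower in PBS than in the other libraries, and moderately higher in ZOL than in ZOL+Ang2. Anxa6, a large annexin with a duplicated core that acts in cholesterol and endosome traffic, had 89.9, 335 and 399.6 CPM, and ZOL was 3.72-fold above PBS (3.19 to 4.37).

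Anxa4 varied least in CPM, though more than Anxa6 with median-of-ratios factors or the RPKM as deposited. Its CPM were 234 in PBS, 133 with ZOL and 212 with ZOL+Ang2, and ZOL was 1.75-fold below PBS (1.58 to 1.94), widening to as much as 4.38-fold with the RPKM as deposited. Anxa7, which binds sorcin and ALG-2 and takes part in vesicle fusion, had 178, 272 and 54.8 CPM. It was lowest in ZOL+Ang2, and ZOL was 1.53-fold above PBS (1.37 to 1.72), a direction that turned to 1.63-fold below with the RPKM as deposited.

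Anxa11, which tethers RNA granules to lysosomes and binds ALG-2 and S100A6, went down along the 3 libraries. It had 137 reads or 73.7 CPM in PBS, 164 reads or 10.4 CPM in ZOL, and 6 reads or 0.684 CPM in ZOL+Ang2. ZOL was 7.06-fold below PBS (5.58 to 8.91). Anxa11 passed the filter through PBS, which favours lower values in the other libraries. Its counts are uncertain, because the pseudogenes Gm2260 and Gm2274 match its transcripts over 657 and 609 bases at 100% and 99.7% identity, and how the authors treated reads with several positions is not stated. Those copies had 0 to 3 reads a library, and the antisense gene Anxa11os, which shares 113 exonic bases, had 0.

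Anxa8, an annexin of some epithelia, had reads in ZOL only, 502 or 32.0 CPM. Neither PBS nor ZOL+Ang2 had a read, and the floor of 3 reads used for its ratios stands at 1.61 and 0.342 CPM there. ZOL was at least 19.8-fold higher than PBS (7.92-fold with the RPKM as deposited) and at least 93.5-fold higher than ZOL+Ang2, or at least 15.1-fold with libraries thinned to equal size. Since Anxa8 passed the filter through ZOL alone, it had to differ in that direction.

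**Figure D2:**
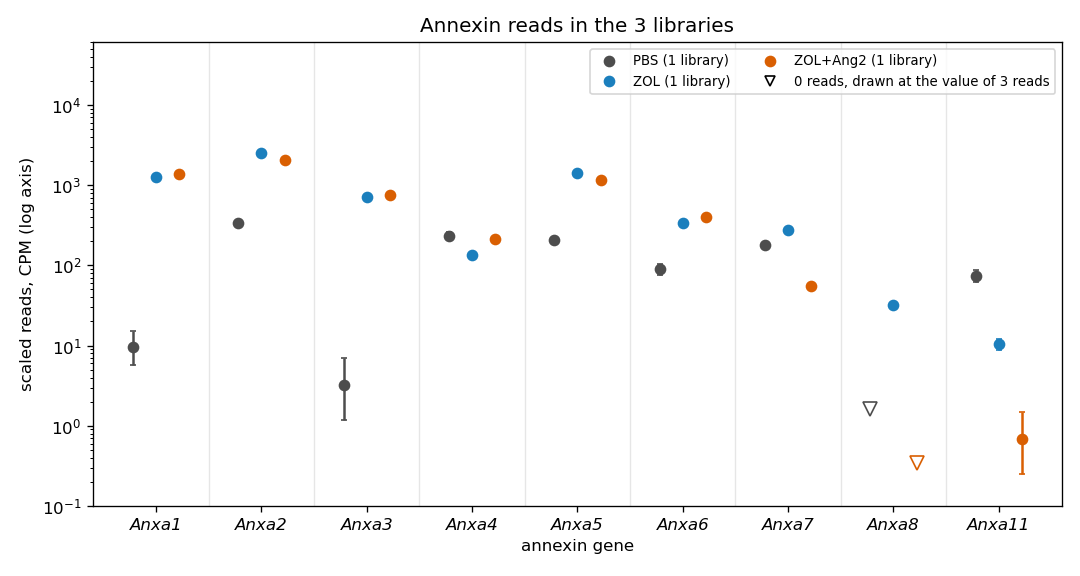
Scaled reads (CPM, logarithmic vertical axis) of each annexin in the PBS, ZOL and ZOL+Ang2 libraries. Points are single libraries, bars are exact 95% Poisson counting intervals, and open triangles mark 0 reads, drawn at the value of 3 reads. Anxa1 and Anxa3 lie under 10 CPM in PBS and at 706 CPM or more in the others, and Anxa11 is lower in each library from left to right.

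The first comparison set ZOL beside PBS. Of the 9 annexins, 6 were at least 2-fold higher in ZOL (Anxa1, Anxa2, Anxa3, Anxa5, Anxa6 and Anxa8), 1 was lower (Anxa11), and Anxa4 and Anxa7 lay within 2-fold, by the log2 ratio of CPM plus 5. Among the 10942 genes whose mean reached 10 CPM, 49.2% stood at least 2-fold above PBS and 29.4% below. Of the members past 2-fold, Anxa1, Anxa3, Anxa8 and Anxa11 passed this filter through the libraries where they are high. The family's median log2 ratio was 2.77, against 0.94 for all genes, so it lay 1.83 above them. It still lay between the quartiles of all genes, -1.67 and 2.83. Beside Anxa1 and Anxa3, Anxa2, Anxa5, Anxa6 and Anxa8 lay at percentiles 75.8, 73.9, 60.9 and 75.9 of all genes. Anxa7, Anxa4 and Anxa11 lay at 46.0, 31.2 and 21.3. Relative to the median of all genes, 5 annexins were at least 2-fold above and 2 (Anxa4 and Anxa11) at least 2-fold below. The share of all genes past these recentred limits was not computed, but both quartiles of all genes lay past them. Scaling moved this split: of all genes past 2-fold 62.6% were higher, against 39.9% with the RPKM as deposited and 47.3% with median-of-ratios factors. The median of all genes moved to -0.83 and -0.17 with these, while the family's median stayed 1.84 and 1.62 above it. With the RPKM as deposited, the ratio of ZOL to PBS was 52.0 for Anxa1, 87.4 for Anxa3, 2.98 for Anxa2 and 2.78 for Anxa5, Anxa11 was 17.7-fold lower, and Anxa6, 1.49-fold higher, lay inside 2-fold.

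The second comparison set ZOL+Ang2 beside ZOL. None of the 9 annexins was at least 2-fold higher and 3 were lower (Anxa7, Anxa8 and Anxa11), in a comparison where 16.2% of all genes were higher and 24.8% lower. Anxa7 was 4.96-fold lower with Ang2 (4.51 to 5.46), from 4271 reads in ZOL to 481 in ZOL+Ang2. Anxa11 was 15.3-fold lower (6.87 to 42.2), resting on the 6 reads in ZOL+Ang2. The abundant members lay close to each other in both libraries. Anxa1 was 1.09-fold higher (1.07 to 1.12), Anxa3 1.08-fold (1.05 to 1.11) and Anxa6 1.19-fold (1.14 to 1.25), while Anxa2 was 1.23-fold lower (1.21 to 1.25) and Anxa5 1.23-fold lower (1.20 to 1.26). Anxa4 was 1.59-fold higher (1.49 to 1.69). The family's median log2 ratio was -0.30, against -0.02 for all genes, and it was 0.10 with median-of-ratios factors and 0.11 with a filter of 50 CPM, so its sign is not settled.

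ZOL+Ang2 against PBS shares its libraries with both former comparisons, and the values are given beside them. Here 5 annexins were at least 2-fold higher and 2 lower, where 44.1% and 33.1% of all genes were. The filter favours the direction of Anxa1, Anxa3 and Anxa11 here as in ZOL against PBS. Of all genes past 2-fold 57.1% were higher, against 46.0% with median-of-ratios factors and 39.0% with the RPKM as deposited. Anxa1 was 142-fold higher (89.2 to 238), Anxa3 236-fold (108 to 643), Anxa2 6.07-fold (5.61 to 6.59), Anxa5 5.66-fold (5.11 to 6.29) and Anxa6 4.45-fold (3.81 to 5.22). Anxa7 was 3.24-fold lower (2.81 to 3.73) and Anxa11 108-fold lower (48.3 to 299). Anxa4 differed by 1.10-fold, with an interval that includes equality (0.990 to 1.22, PBS over ZOL+Ang2), though by 2.44-fold with the RPKM as deposited, and Anxa8 was at 0 reads in both. With the RPKM as deposited the other ratios to PBS were 64.1 for Anxa1, 106 for Anxa3, 2.74 for Anxa2, 2.55 for Anxa5 and 2.00 for Anxa6, and Anxa7 and Anxa11 were 7.18-fold and 239-fold lower.

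**Figure D3:**
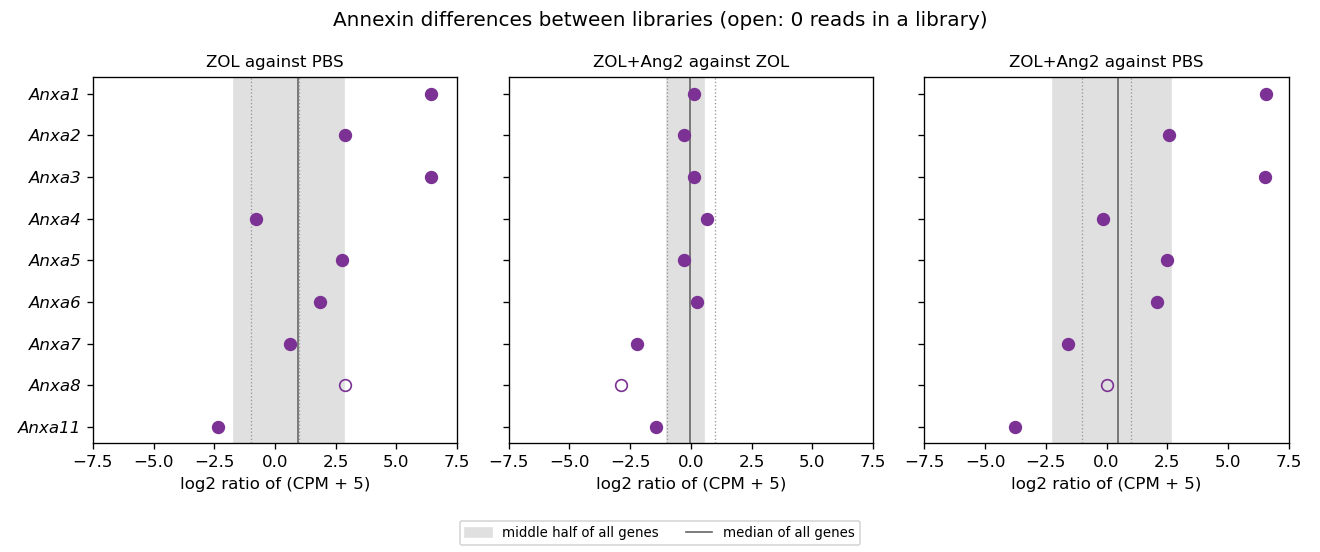
Log2 ratio of CPM plus 5 (horizontal axis) for each annexin in the 3 comparisons, each of 1 library with 1 library. Open points have 0 reads in a library, grey bands span the middle 50% of the 10942 genes compared, the line is their median and dotted lines mark 2-fold. Anxa1 and Anxa3 lie far to the right of the band in both comparisons with PBS, and in ZOL+Ang2 against ZOL only Anxa7, Anxa8 and Anxa11 leave the 2-fold lines.

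Markers of other cell types also differed between the libraries, most lists in another course than the annexins. Their part in the annexin differences was not tested. The 9 epithelial markers, led by Krt8 and Krt18, summed to 689 CPM in PBS, 5621 with ZOL and 5570 with ZOL+Ang2, with 3, 0 and 1 of them at 0 reads. Their sum had a course like that of the annexin sum (1128, 6667 and 5992 CPM). In the epithelial list Cdh1 (165, 84.8 and 81.3 CPM) and Elf3 (49.5, 0.446 and 0 CPM) were highest in PBS. The 11 endothelial markers summed to 3014, 4112 and 1506 CPM, and none was at 0, though Pecam1 and Erg had 2 reads each in PBS and Cldn5 alone gave 1772 CPM there. For 7 fibroblast markers the sums were 343, 454 and 10779.7 CPM, with 3, 1 and 1 at 0 reads, Dpt in every library. The 11 myeloid markers summed to 1188, 279 and 2331 CPM, with Cd68 and Itgam at 0 throughout. Mural markers (7 genes) gave 2.65, 838 and 360.3 CPM, and erythroid ones (5 genes) 191, 5.54 and 25143.5 CPM. Lymphocyte markers (4 genes) stood at 266, 0.446 and 0 CPM and bone markers (4 genes) at 0, 284 and 46.9 CPM. The 7 lymphatic markers summed to 275, 169.6 and 218 CPM.

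Sequences before the gene starts are shown for the leading pair (Anxa5 and Anxa2), the member least varied in CPM (Anxa4) and the members with fewest reads per length in ZOL+Ang2 that had reads in all 3 libraries (Anxa7 and Anxa11). RefSeq promoters (GRCm38.p6) were matched for 7 of the 9 genes, and each stretch lies within 250 bases before an annotated start and outside annotated exons of its gene. For Anxa4 and Anxa7, which have a further start in the table, the upstream start is shown. Capitals mark any of 5 motifs searched on both strands.
Anxa5, GRCm38.p6 chr3:36475895-36476137, - strand: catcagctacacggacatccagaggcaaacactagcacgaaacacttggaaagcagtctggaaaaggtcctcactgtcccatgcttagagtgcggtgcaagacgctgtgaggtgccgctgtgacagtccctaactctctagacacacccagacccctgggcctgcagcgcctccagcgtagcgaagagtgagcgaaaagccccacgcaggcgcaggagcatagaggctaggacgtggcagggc
Anxa2, GRCm38.p6 chr9:69453433-69453619, + strand: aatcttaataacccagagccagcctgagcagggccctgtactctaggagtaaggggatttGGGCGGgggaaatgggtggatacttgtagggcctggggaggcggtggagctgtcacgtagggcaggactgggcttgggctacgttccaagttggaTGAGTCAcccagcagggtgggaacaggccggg
Anxa4, GRCm38.p6 chr6:86793585-86793834, - strand: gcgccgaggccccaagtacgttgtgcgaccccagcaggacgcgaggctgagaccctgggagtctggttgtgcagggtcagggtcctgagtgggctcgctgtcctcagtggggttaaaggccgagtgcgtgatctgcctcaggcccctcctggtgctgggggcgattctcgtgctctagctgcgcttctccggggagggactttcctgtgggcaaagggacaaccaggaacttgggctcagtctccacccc
Anxa7, GRCm38.p6 chr14:20480134-20480383, - strand: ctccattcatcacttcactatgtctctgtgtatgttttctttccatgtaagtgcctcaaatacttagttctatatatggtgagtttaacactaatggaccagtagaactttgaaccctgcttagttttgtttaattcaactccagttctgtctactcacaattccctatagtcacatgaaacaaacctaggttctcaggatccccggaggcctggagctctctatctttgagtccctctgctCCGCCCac
Anxa11, GRCm38.p6 chr14:25841905-25842154, + strand: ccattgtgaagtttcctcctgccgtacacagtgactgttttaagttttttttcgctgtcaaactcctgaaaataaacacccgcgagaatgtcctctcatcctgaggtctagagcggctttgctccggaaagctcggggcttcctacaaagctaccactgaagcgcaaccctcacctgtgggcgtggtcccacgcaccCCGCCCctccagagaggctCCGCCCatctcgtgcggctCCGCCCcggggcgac

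The motifs were the TATA box (TATAAA, in 12.4% of 32851 mouse promoter windows of the same length), the GC box (GGGCGG, 32.7%), the CCAAT box (CCAAT, 33.9%), the AP-1 site (TGANTCA, 6.75%) and the E-box (CACGTG, 6.02%). Anxa11 held 3 GC boxes on the opposite strand within 53 bases of its start. In Anxa2 the printed stretch holds a GC box at position -190 and an AP-1 site at -95, and the exonic rest of its window GC boxes at -48 and -24 and a TATA box at -17. The printed Anxa7 stretch holds a GC box at -8 on the opposite strand, while Anxa4 and Anxa5 have none of the 5. The window of the further Anxa7 start, not printed, also holds an E-box at -113 and GC boxes at -71, -57 and -28. Longer NF-kappaB and CArG motifs were searched first and left out with their matches known, an NF-kappaB match in the Anxa4 stretch among them. The Anxa1 window, which lies in an exon of a longer transcript and is not printed, had a TATA box at -32. These matches are letters only and say nothing of binding.

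By position, the members lie on 7 chromosomes of mm10, and 3 of them, Anxa7, Anxa11 and Anxa8, lie on chromosome 14. Anxa7 (ENSMUSG00000021814) spans 20455260 to 20480133 on the minus strand, Anxa11 (ENSMUSG00000021866) 25842156 to 25886804 on the plus strand, and Anxa8 (ENSMUSG00000021950) 34085981 to 34100571 on the plus strand. These are the same 3 genes that were at least 2-fold lower in ZOL+Ang2 than in ZOL, as 24.8% of all genes were. The overlap was noticed after the values were known. It does not hold in full where Anxa8 falls under the filter, with median-of-ratios factors, the RPKM as deposited, thinned libraries, a filter of 50 CPM or scaling without PBS, nor at 4-fold, where 2 or fewer members were lower. Anxa8 also had to be lower, since it passed the filter through ZOL alone, and Anxa11 rests on 6 reads in ZOL+Ang2. The share over all genes of chromosome 14 was not computed. Anxa1 (ENSMUSG00000024659) lies on chromosome 19 at 20373428 to 20390944, Anxa2 (ENSMUSG00000032231) on chromosome 9 at 69453620 to 69491795, and Anxa3 (ENSMUSG00000029484) on chromosome 5 at 96793339 to 96845966. Anxa4 (ENSMUSG00000029994) lies on chromosome 6 at 86736840 to 86793584, Anxa5 (ENSMUSG00000027712) on chromosome 3 at 36448923 to 36475894, and Anxa6 (ENSMUSG00000018340) on chromosome 11 at 54979108 to 55033445.

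Genes of calcium-binding partners of annexins differed more between ZOL and PBS than between ZOL and ZOL+Ang2, as genes in general did. Of 7 listed, 6 passed the filter, 4 were at least 2-fold higher in ZOL than in PBS and 1 lower, where 49.2% and 29.4% of all genes were, and the list's median log2 ratio was 2.34 against 0.94 for all genes. In ZOL+Ang2 against ZOL all 6 lay within 2-fold, where 16.2% of all genes were at least 2-fold higher and 24.8% lower. S100a10, the partner of annexin A2, had 251 CPM in PBS, 1459 with ZOL and 1335 with ZOL+Ang2. Its RPKM ratio to Anxa2 was 2.31, 1.80 and 2.02, so transcripts of the pair kept similar proportions in all 3 libraries. S100a11, which binds the N-terminal end of annexin A1, had 61.3, 1004 and 1081 CPM. Unlike that pair, the RPKM ratio of S100a11 to Anxa1 was 36.4 in PBS and 4.58 and 4.51 in the others.

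S100a6, a partner of annexin A11 and other members, had 367, 4052 and 2675 CPM and was lowest in PBS, where Anxa11 was highest. Ahnak, a scaffold that binds the complex of annexin A2 and S100A10, had 234, 1062 and 982 CPM. Pdcd6, which encodes ALG-2, a partner of annexins A7 and A11, was the member that was lower, at 332, 110.4 and 108 CPM, 3.01-fold below PBS in ZOL (2.74 to 3.30). Sri, which encodes the annexin A7 partner sorcin, had 130.2, 242 and 248 CPM. Pdcd6 and Sri were level between ZOL and ZOL+Ang2, where Anxa7 was not. The partner genes that passed the filter had reads in every library. In the lists that follow, members without reads in a library that passed the filter did so through the libraries where they are high. Such members had to differ. S100a4 stayed under the filter at 0, 2.42 and 1.25 CPM.

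Of the receptors of annexin A1, Fpr1 had 414 reads or 223 CPM in PBS and 0 reads in either other library, and Fpr2 had 0 in every library. Fpr1 therefore passed the filter through PBS alone. Ligand and receptor transcripts were on opposite sides, with Anxa1 lowest where Fpr1 had reads.

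Fibrinolysis genes, the pathway served by annexin A2, split in their course. Of 6 listed, 3 passed the filter, and 2 of these were at least 2-fold higher in ZOL than in PBS and in ZOL+Ang2 than in ZOL, where 49.2% and 16.2% of all genes were, with list medians of 3.84 and 1.21 against 0.94 and -0.02 for all genes. Plat, the tissue plasminogen activator that annexin A2 binds, had 194, 158 and 209.7 CPM, but 51.5, 16.8 and 25.1 RPKM as deposited, highest in PBS. Plau, urokinase, had 1 read in PBS, 74.5 CPM with ZOL and 179 with ZOL+Ang2, and its receptor gene Plaur had 0 reads, 95.2 CPM and 262 CPM. Both passed the filter through the libraries where they are high. Plaur was at least 58.9-fold higher in ZOL than in PBS and 2.75-fold higher in ZOL+Ang2 than in ZOL (2.58 to 2.94). Unlike Anxa2, which was 1.23-fold lower with Ang2, these genes of urokinase were higher with it. Plasminogen (Plg) had 19, 0 and 63 reads, and Serpinf2 had no reads.

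**Figure D4:**
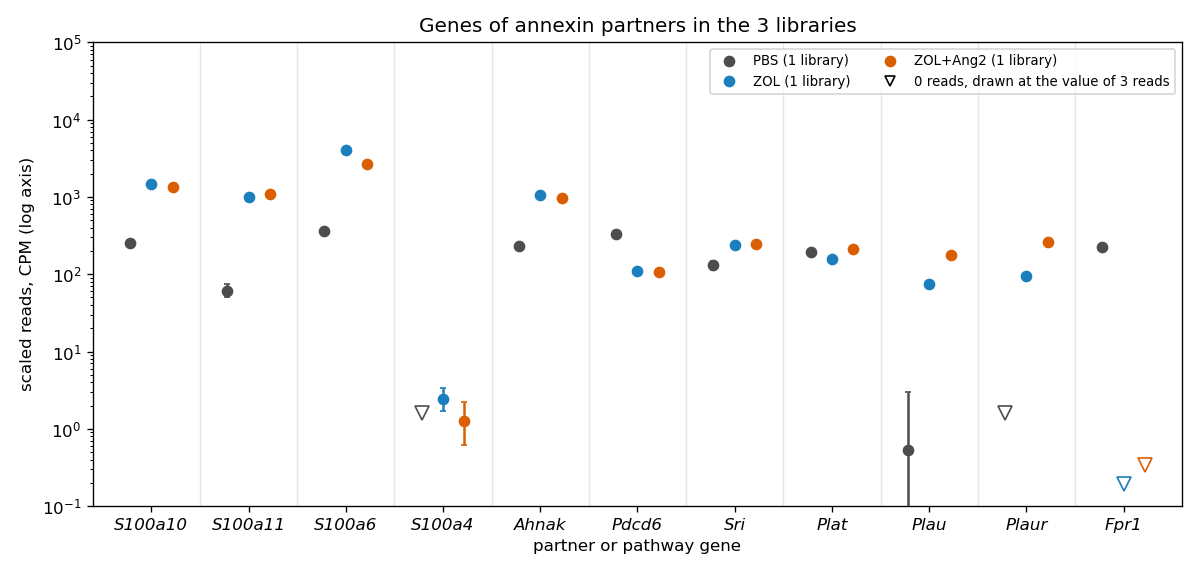
Scaled reads (CPM, logarithmic vertical axis) of partner and pathway genes in the 3 libraries. Points, bars and open triangles stand for single libraries, exact 95% Poisson intervals and 0 reads drawn at the value of 3 reads. S100a10, S100a11, S100a6 and Ahnak are lowest in PBS, Pdcd6 and Fpr1 highest there, and Plau and Plaur highest in ZOL+Ang2.

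Genes that set or read phosphatidylserine on the cell surface, the ligand of annexin A5, were mixed. Of 8 listed, 6 passed the filter; in ZOL against PBS 4 were at least 2-fold higher and 1 lower, where 49.2% and 29.4% of all genes were (median 1.80 against 0.94). In ZOL+Ang2 against ZOL 2 were lower and none higher, where 24.8% and 16.2% of all genes were (median -0.61 against -0.02). The scramblase gene Ano6 had 315 CPM in PBS, 106 with ZOL and 83.8 with ZOL+Ang2. Tmem30a, the subunit that flippases need, had 33.9, 182 and 47.4 CPM. Mfge8, another phosphatidylserine binder, had 229, 584 and 313 CPM, but nearly equal RPKM as deposited in PBS and ZOL (80.8 and 82.5). Gas6, which bridges phosphatidylserine to TAM receptors, had 77.0, 147 and 12.9 CPM and was 11.4-fold lower in ZOL+Ang2 than in ZOL (9.42 to 13.9). Pros1, the related bridging protein, had 2 reads in PBS, 127 CPM with ZOL and 166 with ZOL+Ang2. Atp11a, a flippase, had 0 reads, 51.2 and 77.9 CPM. Pros1 and Atp11a, both among the genes higher in ZOL than in PBS, passed the filter through the libraries where they are high.

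Of 8 listed membrane repair genes, 6 passed the filter, and in ZOL against PBS 4 were at least 2-fold higher and none lower, where 49.2% and 29.4% of all genes were (median 2.66 against 0.94). Of those 4, Dysf, Capn1 and Capns1 had 0 to 2 PBS reads and passed the filter through the other libraries. Myof, a ferlin related to dysferlin, had 138, 262 and 358 CPM, and Capn2, a calpain, 123, 158 and 167 CPM. By the RPKM as deposited both were lower in ZOL than in PBS, at 13.8 against 18.2 for Myof and 16.6 against 32.1 for Capn2, and so were Sri and Gas6. Dysf, which encodes dysferlin, a binding partner of annexins A1 and A2 in muscle, had 0 reads, 52.4 and 7.87 CPM and was 6.65-fold lower in ZOL+Ang2 than in ZOL (5.20 to 8.64). Capn1 went the other way, with 2 reads in PBS, 62.3 CPM with ZOL and 151 with ZOL+Ang2. Capns1 had 2 reads, 64.3 and 117 CPM, Pdcd6ip, which encodes ALIX, 46.3, 181 and 131 CPM, and Trim72 no reads.

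The remaining annexin genes of mouse were scarce. Anxa9 had 0 reads in PBS and ZOL and 378 reads or 43.1 CPM in ZOL+Ang2, at least 226-fold higher than in ZOL. Its exons share 71 bases with Mindy1 (0, 1115 and 816 reads) and 94 with 6330562C20Rik, so its reads are uncertain. Anxa10 had 3, 0 and 60 reads, and Anxa13 had none. Anxa9 was therefore an annexin seen in ZOL+Ang2 alone, as Anxa8 was in ZOL.

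For genes with the most similar levels, the distance of log2 values of CPM plus 5 was taken over the 3 libraries among 6633 protein-coding genes averaging 20 CPM or more. The values were not centred, so the distance measures level as well as course. Annexins, gene models, and ribosomal protein, mitochondrial, chemoreceptor and antigen receptor genes were left out of these candidates. With only 3 libraries such likeness is a weak description. Nearest to Anxa5, the member of highest mean RPKM, were Rack1 (distance 0.23), S100a10 (0.35) and Npm1 (0.41), and 24 genes lay within a distance of 1. Nearest to Anxa1, the member of widest log2 range, were Clic1 (0.50), Glo1 (0.78) and Cct5 (0.79), and 3 genes lay within 1.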

How the data were processed

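RNA of 3 libraries, 1 per group, was compared without replicates. The submitters' processing notes name featureCounts 2.0.6, HISAT2 2.2.1 and fastp, and the mm10 build, without role or order. The authors deposited RPKM values per gene. The read total behind them, the annotation release and the strand setting are unstated in the labels. Groups come from the treatment label.

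Reads were recovered as whole multiples of 1 step per library, from RPKM times the exon length in GENCODE M21, since the design assumed counts could be recovered. With a tolerance of 0.01, 96.9%, 96.4% and 96.2% of values above 0 came out whole, and 37 of 54532 genes without a length were left out. Every annexin except Anxa1 came out whole. The recovered reads differ from the totals the RPKM imply (1120319, 23675988 and 11728568), so whether they are the authors' counts is unknown. Even multiples made up 61.2% of low values in PBS.

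TMM factors (1.11, 0.946 and 0.953, with trims of 30% and 5%), CPM, folds and intervals were computed in Python 3.11.15 with numpy 2.4.6, pandas 2.3.3 and scipy 1.17.1. The steps were tested on simulated data. Those data altered few genes, as many up as down, so they could not test scaling between libraries as unlike as these. The filter for comparison was a mean of 10 CPM. Log2 ratios add 5 CPM, which understates differences of low genes, and floors are 3 reads. Alternatives covered scaling, the totals, thinning, filters, the prior and the fold.

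Named genes are the 9 members, the other annexins, the 2 most abundant and the extreme members of each partner list, and the 3 nearest genes of 2 members; other list members named were picked with their values known. The members and lists were chosen with earlier results of these data known. A listed fibrinolysis gene is not reported here by name.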

Additional observations from a re-analysis of the deposited data

How the results depend on the processing

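No paired analysis was possible because each group was 1 library. No ratio of a single annexin past 2-fold changed direction. Anxa4 was over 2-fold lower in ZOL than in PBS in 4 settings (up to 4.38-fold), and in ZOL+Ang2 than in PBS in 1 (2.44-fold).

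Annexins lower in ZOL than in PBS numbered 1, but 2 with median-of-ratios factors, with total reads only, with the RPKM as deposited and with thinned libraries, and 0 with a filter of 50 CPM. Of all genes, 3221 of 10942 were lower. With those settings, in the same order, 4734 of 11363, 3624 of 11058, 5492 of 11354, 4342 of 11250 and 551 of 3558 were lower. Annexins higher in ZOL than in PBS numbered 6, but 4 with median-of-ratios factors and the RPKM as deposited, and 5 with thinned libraries, the 50 CPM filter and 4-fold. Of all genes, 5385 of 10942 were higher. With these settings in order, 4247 of 11363, 3653 of 11354, 4506 of 11250, 2040 of 3558 and 4076 of 10942 were higher. In ZOL+Ang2 against ZOL 3 annexins were lower, but 2 with median-of-ratios factors, the RPKM as deposited, thinned libraries, 4-fold and scaling without PBS, and 1 with the 50 CPM filter. Of all genes, 2718 of 10942 were lower. By setting, in order, 2207 of 11363, 2053 of 11354, 2399 of 11250, 1474 of 10942, 2543 of 10793 and 673 of 3558 were. In ZOL+Ang2 against PBS 2 annexins were lower, but 3 with the RPKM as deposited and 1 with the 50 CPM filter and with 4-fold, and 5 were higher, but 4 with the RPKM as deposited. Of all genes, 3625 of 10942 were lower, and in order of setting 5582 of 11354, 637 of 3558 and 2880 of 10942. Genes higher were 4830 of 10942, and 3572 of 11354 with the RPKM as deposited.

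The median log2 ratio in ZOL against PBS (2.77) was 1.45 with median-of-ratios factors, 2.54 with total reads only, 1.01 with the RPKM as deposited and 1.66 with thinned libraries. In ZOL+Ang2 against PBS (2.09) it was 1.63 with median-of-ratios factors, 1.16 with the RPKM as deposited, 1.76 with thinned libraries and 2.47 with a filter of 50 CPM. In ZOL+Ang2 against ZOL (-0.30) it was 0.102, 0.0789 and 0.0116 with median-of-ratios factors, the RPKM as deposited and thinned libraries, -0.23 without the listed abundant classes in the totals, 0.11 with a filter of 50 CPM, and -0.0330 with the scaling made without the PBS library, an alternative added after seeing the data. Thinning, median-of-ratios factors and the RPKM as deposited left Anxa8 under the filter; other causes were not tested. Relative to all genes, the family's median in ZOL against PBS lay 1.60 to 1.97 above under these scalings. It moved more with the filter, to 1.32 above at 50 CPM, 2.63 above at 1 CPM and 2.75 above without a filter. Depth limits the PBS values of Anxa1 and Anxa3 (18 and 6 reads) and the ZOL+Ang2 value of Anxa11 (6 reads).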
